A study of Drosophila melanogaster with 3 samples.

Results

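The regions described here are the heterochromatin protein 1 (HP1) peaks of the distal autosomal euchromatin of the Drosophila melanogaster embryo, on the chromosome arms 2L, 3L and 3R away from the centromeres. A peak was taken as a member when its midpoint lay below 20 Mb on 2L, below 21.5 Mb on 3L, or at or above 3 Mb on 3R, and its score and width played no part. This gave 402 of the 15755 peaks of the deposited list (2.55%): 135 on 2L, 144 on 3L and 123 on 3R. The samples are whole embryos of 8 to 16 h (strain Y cn bw sp): 2 HP1 chromatin immunoprecipitation (ChIP) samples made with a rabbit polyclonal antibody and 1 input DNA sample, with 1 peak list for all of them. All 3 samples carry the alleles y[1] and oc[R3.2], cn[1], bw[1] and sp[1] with CG33964[R4.2], Gr22d[1] and Gr22b[1], and Rh6[1], GstD5[1], MstProx[1], lab[R4.2] and LysC[1]. The list does not tell the replicates apart and gives no read counts, so no peak has a replicate error, the depth is unknown, and the values below are described side by side with no test. Whole embryos mix many cell types, and a peak cannot be assigned to any of them.

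HP1 binds methylated histone tails and is the best known structural protein of heterochromatin, the compact, repeat-rich chromatin around the centromeres. In the gene-rich arms of the fly it is known from scattered places, among them transposable element insertions and some genes. It is also part of the protein cap of the fly telomere, where chromosome ends are built from arrays of telomeric retrotransposons next to satellite repeats instead of the short repeats made by telomerase in most animals.

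No gene or histone data are in the list, so the label of euchromatin could only be set beside the density of these same HP1 peaks. That is not an independent check of the label. The 3 windows span 66.4 Mb and had 6.05 peaks per Mb, and peaks covered 0.602% of their bases. The inner ends left out by the limits had 117.2 peaks per Mb on 2L and 187.3 on 3L, covering 16.6% and 24.9% of bases. The outer end of 3R and the inner ends of 2L and 3L were set at the last peak, since arm lengths are not in the list. On 3R the inner 3 Mb differed less from the distal window, with 34 peaks at 11.3 per Mb and 1.08% of bases covered. On the member side, the nearest peak lay at least 132 kb from each limit. On 2L the last member, from 19702590 to 19702929 (score 15.1), lay 297 kb from the limit and the first peak outside, from 20007514 to 20008181 (score 11.8), 7.85 kb from it. On 3L the member from 21367769 to 21368199 (score 16.8) faced an outside peak from 21742940 to 21743319 (score 12.3). On 3R the member from 3177810 to 3178616 (score 18.6) faced one from 2907084 to 2907776 (score 39.2). All positions are on FlyBase release 5 and count from 1.

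The 402 peaks fell into 160 sites, far apart from one another. A site is either 1 isolated peak or a group, in which neighbouring peaks lie less than 5 kb apart. Groups held 343 peaks (85.3%, exact binomial interval 81.5 to 88.6%, which covers counting only and treats neighbouring peaks as independent, which they are not), and 59 peaks were isolated. The share in groups was 85.9% on 2L, 85.4% on 3L and 84.6% on 3R. The arms thus lay inside each other's counting intervals.

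Gaps between neighbouring peaks were mostly either short or very long. Of the 399 gaps, 242 lay inside groups, and 209 of these (86.4%) were shorter than 600 bp. Their median was 286.5 bp, with quartiles of 132.5 and 487 bp. The 157 gaps between sites had a median of 324.3 kb, and 127 of them (80.9%) exceeded 100 kb. Fewer gaps lay between these sizes: 14 from 600 bp to 1 kb, 10 from 1 to 2 kb, 9 from 2 to 5 kb, 6 from 5 to 20 kb, 10 from 20 to 50 kb and 14 from 50 to 100 kb. Choosing 10 kb in place of 5 kb as the largest gap in a group therefore changed little: the share in groups became 86.1%. The split into many peaks per group did depend on short gaps: with peaks less than 1 kb apart joined, 179 peaks remained, of which 142 stood alone and 37 (20.7%) lay in groups, in the same number of sites.

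**Figure D1:**
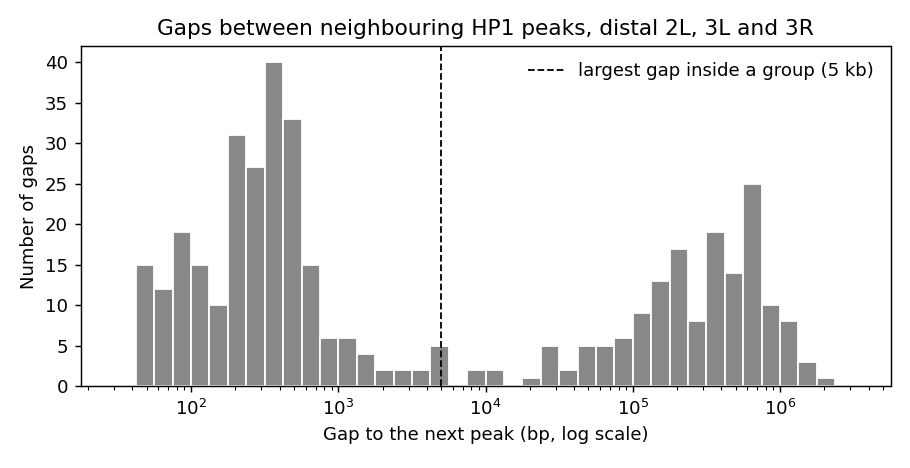
Histogram of the gap from the end of each peak to the start of the next on the same arm, in bp on a log scale, for the 399 neighbouring pairs, with the 5 kb limit as a dashed line. Short gaps under 1 kb and long gaps over 100 kb form separate humps, and few gaps lie between 2 and 20 kb.

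Most sites were small. Beside the 59 isolated peaks there were 34 groups of 2 peaks, 32 of 3, 13 of 4, 12 of 5, 6 of 6, 2 of 7, 1 of 8 and 1 of 9. The 101 groups had a median of 3 peaks and a median span of 3799 bp (quartiles 2551 and 5661 bp), and peaks covered a median of 79.1% of a group. Median spans were 3744 bp on 2L, 3858 bp on 3L and 3714 bp on 3R. A group in the distal arms was thus usually a few kb long, with most of its bases under peaks, although the 10 groups with most peaks had 42.0 to 72.4% covered.

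The groups with most peaks varied widely in their highest score. On 2L the group from 12731354 to 12743560 held 9 peaks over 12207 bp, covered 47.0% of it and reached a score of 36.3. The group of 8 peaks on 2L from 19658027 to 19672658 spanned 14632 bp and reached 56.05. Groups of 7 lay on 3L from 5104654 to 5114873 (highest score 44.4) and on 3R from 3520597 to 3528570 (30.1). Of the 6 groups of 6 peaks, 4 lay on 3L. They ran from 6425376 to 6432917, from 8484285 to 8491144, from 6849464 to 6853390 and from 19701999 to 19705810, with highest scores of 30.8, 54.8, 26.3 and 19.0. The remaining groups of 6 were on 2L from 3252710 to 3258499, with a highest score of 21.0, and at the tip of 3R from 27899079 to 27904707, with 95.5, the highest of all sites. Over the 101 groups, the highest score and the number of peaks had a Spearman correlation of 0.07, as a description of groups that come from 1 list. Over all 160 sites, longer sites had the higher scores instead (Spearman 0.77). A wide peak also had a high score on its own (Spearman 0.81 over the 402 peaks), so the 2 measures are not independent.

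Isolated peaks ranged from narrow peaks of low score to wide peaks of high score. Of the 59, 38 were narrower than 800 bp, with a median width of 302 bp and a median score of 12.3 (range 7.56 to 30.7), and 36 of these scored below 20.96, the median of the whole list. The other 21 were 914 to 5101 bp wide, with a median of 2517 bp, and scored 28.7 to 69.5 with a median of 44.6. The limit of 800 bp was chosen after the widths had been seen, and it describes a range of widths without a clear break. Score and width had a Spearman correlation of 0.85 over the 59 peaks, so the difference in score goes with the choice by width. Both kinds occurred on each arm, with 12 of 19 isolated peaks narrow on 2L, 15 of 21 on 3L and 11 of 19 on 3R.

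The 10 isolated peaks of highest score were all wider than 800 bp. The first was on 3R from 4724770 to 4728751, 3982 bp wide with a score of 69.5. On 2L they ran from 10862975 to 10864458 (1484 bp, score 59.7), from 10138263 to 10143174 (4912 bp, 56.0), from 11897207 to 11899723 (2517 bp, 51.1) and from 30 to 5130, the tip of the arm (5101 bp, 47.4). On 3L they ran from 12912487 to 12917284 (4798 bp, 52.4) and from 14305442 to 14309382 (3941 bp, 51.3). The others on 3R ran from 23617458 to 23620454 (2997 bp, 56.0), from 6783978 to 6788915 (4938 bp, 55.0) and from 9804529 to 9806560 (2032 bp, 51.1). Group spans, with a median of 3799 bp, overlapped the widths of these single peaks.

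Isolated and grouped peaks had no stable order. The median width was 474 bp for isolated and 582 bp for grouped peaks, a difference of -108 bp, and the median scores were 16.1 and 18.2, a difference of -2.07. The spread was wider for isolated peaks, with width quartiles of 268 and 1641.5 bp against 337 and 900 bp. On the log2 scale the means differed by 0.09 for width and by 0.04 for score, with the isolated peaks higher, so the sign turned for both measures.

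**Figure D2:**
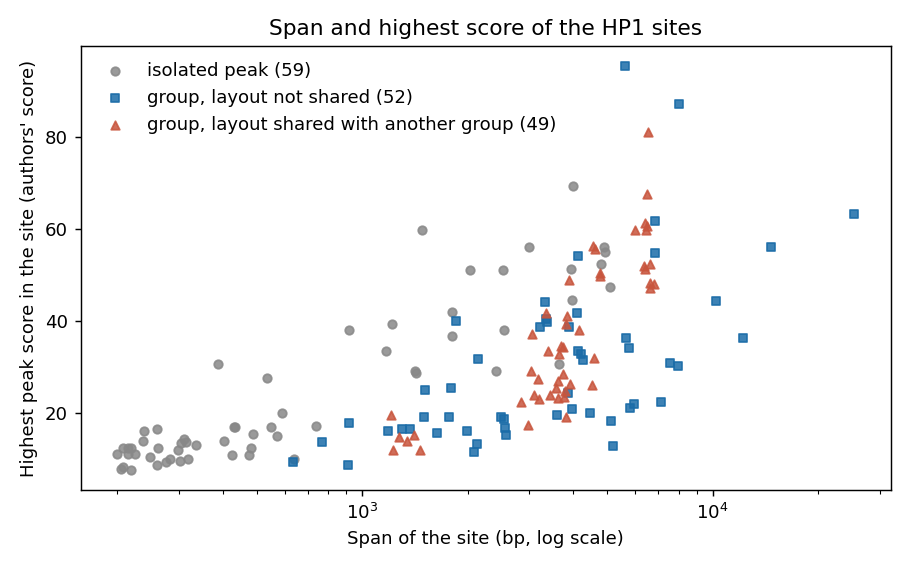
Each point is 1 of the 160 sites, with its span in bp on a log scale and the highest authors' score among its peaks; grey circles are isolated peaks, blue squares groups whose layout no other group shares and red triangles groups that share one. Isolated peaks run from narrow ones with low scores to wide ones with scores of up to 69.5, and many groups line up near 3.0 to 4.3 kb and 6.3 to 6.9 kb.

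Site spans gathered at certain lengths. Of the 160 sites, 43 were shorter than 1 kb, and 39 of these were isolated peaks. A further 34 spanned 3 to 4 kb, more than the 23 of 1 to 2 kb and the 14 of 2 to 3 kb. The somewhat wider range of 3.0 to 4.3 kb, which includes these 34, held 40 sites (25%). After fewer sites of 5 to 6 kb (9), 13 spanned 6.3 to 6.9 kb (8.12% of all), and all 13 were groups. Only 8 sites were longer than 6.9 kb. The median of the highest scores was 12.3 in sites under 1 kb, 31.8 at 3 to 4 kb and 54.8 at 6 to 7 kb. The ranges were set after the spans had been seen.

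Widths of single peaks recurred among narrow peaks and among wide ones. Counted in bins of 20 bp, the fullest bin was 200 to 219 bp with 22 peaks (5.47%), followed by 220 to 239 bp (18 peaks), 280 to 299 bp and 420 to 439 bp (16 each) and 240 to 259 bp (15). The smallest width in the whole list is also 200 bp, so the first bin stands at its lower limit. These bins were not set beside the same bins of the whole list. Peaks in these narrow bins scored low: the highest of the first bin was 12.7, on 2L from 12731354 to 12731572, followed by 12.3 on 2L from 1221218 to 1221424 and 12.3 on 3L from 20210519 to 20210733. The bin of 220 to 239 bp reached 16.1 (3L, 19796616 to 19796853), 15.1 (3L, 6432689 to 6432917) and 13.9 (3L, 109184 to 109419). The bin of 240 to 259 bp reached 16.4 (2L, 3255957 to 3256204), 15.7 (3L, 20474318 to 20474569) and 15.1 (3L, 6853144 to 6853390). In the bin of 280 to 299 bp, 24.2 was the highest (2L, 16518621 to 16518910), before 2 peaks on 3R with 16.0 each (3180045 to 3180339 and 27517740 to 27518026). In that of 420 to 439 bp, it was 35.6 (2L, 9974248 to 9974667), before 18.7 (3R, 14435499 to 14435925) and 18.6 (2L, 12732198 to 12732620). The highest of each of these last bins flanks a much wider peak of the same layout, described below. No exact width was shared by more than 4 peaks.

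Among the 25 peaks of 3 kb or more, widths gathered in a few ranges, which were set after the widths had been seen. These peaks include the wide peaks of layouts A, B and C described below, so the observations overlap. From 4798 to 4950 bp there were 8 peaks, 5 on 2L, 2 on 3L and 1 on 3R, with scores of 52.4 to 81.1, and 3 of them were isolated. Another 8 were 3650 to 3982 bp wide, 4 of them isolated, with scores of 30.7 to 69.5. Between these sets, from 3982 to 4798 bp, there was none. A further 4 peaks were 5101 to 5288 bp wide, 3 were 3159 to 3307 bp, and the last 2, both on 3L, were 6645 bp and 20098 bp. The 6645 bp peak lay from 5452940 to 5459584 and, at 87.2, outscored the other 3L members. The widest peaks of 2L and 3R were those of 5288 bp (10594597 to 10599884, score 47.3) and 5151 bp (19678453 to 19683603, score 61.3).

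Whole arrangements of peaks recurred as well. Groups were said to share a layout when they had the same number of peaks and no peak edge differed, after the best shift, by more than 5% of the longer span, with the groups read in the same or in opposite directions along the arm. By this rule, chosen after the groups had been seen, 49 of the 101 groups (48.5%) shared a layout with at least 1 other. The exact binomial interval, 38.4 to 58.7%, treats groups as independent, but a group shares a layout only when another does. There were 16 layouts, 13 of them found on 2 or more arms. Of the 44 matching pairs of groups, 28 matched in the same direction and 16 as mirror images, and 26 joined groups on different arms. Links were chained, so not every pair within a layout matched: of the 9 layouts with 3 or more groups, every pair matched in 3. With a limit of 3%, 25 groups (24.8%) shared a layout, and within 1%, 8 did. How often groups match without anything in common was not tested, and groups of 2 peaks have few edges to differ in. Groups match only when their spans are close, so the shared layouts and the gathered site spans above overlap as observations.

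The closest layout relative to its span, A, consisted of a wide peak between 2 narrow ones and occurred in 4 groups, all on 2L. They ran from 6991654 to 6998117, from 9974248 to 9980723, from 12558504 to 12565023 and from 16512412 to 16518910. Their spans were 6464, 6476, 6520 and 6499 bp, and no edge differed by more than 43.5 bp, or 0.667% of the span, between any 2 of them. The wide peak was 4919, 4945, 4870 and 4904 bp in that order, the narrow peak on one side 273 to 338 bp and that on the other side 420 to 469 bp. The second and the fourth group were mirror images of the others. The scores followed the same order in each: 59.7, 60.75, 81.1 and 67.65 for the wide peak, 23.0 to 37.9 for the 420 to 469 bp peak and 20.6 to 25.9 for the other. The wide peak scoring 81.1, from 12559094 to 12563963, outscored all other 2L members.

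Layout B was a peak of 783 to 956 bp followed by one of 4950 to 5288 bp, in 4 groups that all had the same direction. They lay on 2L from 2112420 to 2119060 and from 10593261 to 10599884, on 3L from 13567139 to 13573130 and on 3R from 19677174 to 19683603, with spans of 6641, 6624, 5992 and 6430 bp. The wide peak scored 48.4, 47.3, 59.7 and 61.3, and the narrow one 37.3, 31.2, 18.2 and 25.3. The group on 3L was the shortest and differed most, by up to 324.5 bp at an edge.

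Layout C was a peak of 545 to 736 bp beside one of 3668 to 3827 bp, in 4 groups of 4560 to 4777 bp. Those on 3L from 1425302 to 1429917 and on 3R from 15570332 to 15575095 had one direction, and those on 3L from 8226821 to 8231380 and on 3R from 5104655 to 5109431 the other. The wide peaks scored 49.8 to 56.35 and the narrow ones 16.4 to 37.5. In layouts A, B and C the wide peak had the higher score in each of the 12 groups. A high score also went with width over all 402 members (Spearman 0.81). A, B and C are the 3 layouts of 3 or more groups in which every pair matched.

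Outside A, B and C, layouts of 3 peaks also occurred in 4 groups each, over 6378 to 6786 bp and over 3691 to 4163 bp. Only 3 and 4 of their 6 pairs matched. In the shorter of these layouts the highest score lay at position 1, 2 or 3, depending on the group. Some of the other layouts had more peaks. The layout with most groups had 4 peaks over 2835 to 3190 bp and 6 groups, 2 on 3L and 4 on 3R, with highest scores of 17.3 to 29.1, but only 6 of its 15 pairs matched. Layouts of 5 peaks occurred in 3 groups of 3435 to 3799 bp and in 3 of 3629 to 3774 bp, and 1 layout of 6 peaks joined the groups on 3L from 6849464 to 6853390 and from 19701999 to 19705810 as mirror images. The groups with a shared layout had a median highest score of 33.5 and the 52 without one 24.6, while their median spans, 3799 and 3726 bp, were close.

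The distal part of X did not define the layouts. Its groups were compared by the same rule with all groups of the 3 autosomal windows, with or without a shared layout. Distal X held the peaks with midpoints at least 3 Mb short of the end of the last X peak. Of its 29 groups, 9 (31.0%, exact binomial interval 15.3 to 50.8%) matched a group of the distal autosomes, and these matched 17 of the 101 autosomal groups (16.8%). Some of the 9 matched only autosomal groups without a shared layout, as the X group from 10260673 to 10261300 did with that on 3L from 16520304. A group on X from 2504638 to 2511072, 6435 bp long, matched the 4 groups of layout A with edges within 32 to 43 bp. One from 1824974 to 1831450 matched the 4 groups of layout B, most closely that on 3R, within 33 bp. X also had 4 peaks of 4795 to 4946 bp among its 123. On chromosome 4, with longer groups (median span 9003 bp), 1 of 37 groups matched, on inner 2L 1 of 28, on inner 3L 2 of 31 and on inner 3R 2 of 5 (40%, exact binomial interval 5.27 to 85.3%). Whether the regions differ was not tested, and long groups of many peaks have fewer groups of the same size to match.

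The distal windows of 2L, 3L and 3R, here the distal autosomes, were set beside other placed regions, but arm 2R was not among them. Of the regions compared, distal X was most like the distal autosomes in density and spacing. Distal X had 6.35 peaks per Mb in 40 sites, 91.1% of its peaks in groups, a median of 4 peaks per group and 334.1 kb between sites. The distal autosomes had 2.41 sites per Mb and distal X 2.06. Inner 2L, inner 3L and chromosome 4 had more peaks per group, with medians of 9, 14 and 6, and median distances between sites of 11.5, 8.46 and 12.0 kb. Inner 3R had the same median of 3 peaks per group as the distal autosomes, in 5 groups, and 117.6 kb between sites. Isolated peaks made up 14.7% of the distal autosomal peaks, 8.94% on distal X, 2.29% on inner 2L, 2.28% on inner 3L and 1.87% on chromosome 4. On inner 3R it was 41.2%, that is 14 of 34. Peak widths differed less than group sizes: medians were 559.5 bp on the distal autosomes, 474 bp on distal X, 703.5 bp on inner 2L, 702.5 bp on inner 3L, 575.5 bp on chromosome 4 and 432 bp on inner 3R. Median scores were 17.8, 15.3, 22.02, 21.4, 19.8 and 16.41 in the same order.

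Along the arms, sites were sparse everywhere but not even. Counted in bins of 1 Mb from the inner limit outwards, 2 of the 67 bins, both on 3R, held no peak, and the bins had a median of 2 sites and at most 8. The bin of 8 sites lay 1 to 2 Mb from the limit on 3L, and on 2L and 3R the first Mb had 6 sites each, the most of its arm. With each window cut into 3 equal parts, 2L had 3.6 sites per Mb in the inner, 2.85 in the middle and 1.65 in the outer part. On 3L the inner part had 3.21, the middle 2.09 and the outer 2.65, and on 3R the values were 2.77, 1.45 and 1.69. Each arm thus had most sites per Mb in its inner part, while the sparsest part was the outer one on 2L and the middle one on 3L and 3R. The median of the highest scores in a site was greater in the middle part than in either other part on each arm: 31.7 against 19.7 and 16.8 on 2L, 33.5 against 19.0 and 27.5 on 3L, and 38.95 against 24.8 and 22.55 on 3R, in the order middle, inner, outer. The longest stretch without a peak on each arm ran on 3R from 16684286 to 18707370 (2023 kb), on 3L from 2755467 to 4452533 (1697 kb) and on 2L from 3258499 to 4662120 (1404 kb).

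**Figure D3:**
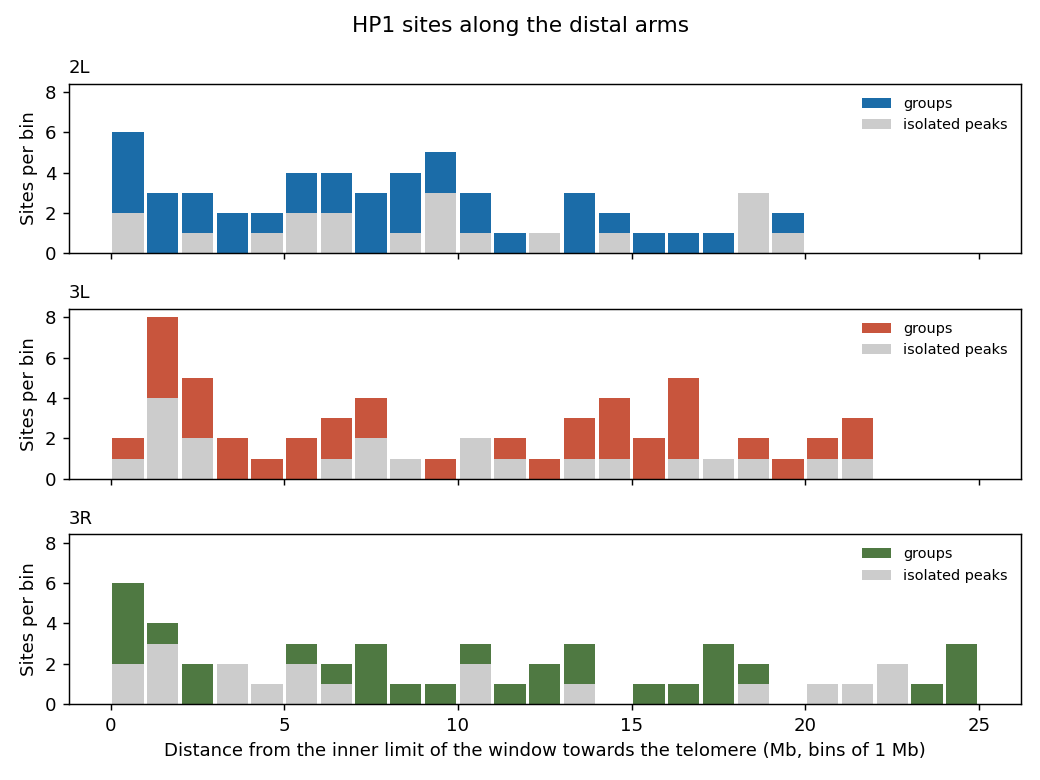
Number of sites in bins of 1 Mb by distance from the inner limit towards the telomere, for 2L, 3L and 3R, with isolated peaks in grey and groups stacked on them in colour; the last bins of 3L and 3R are shorter than 1 Mb. The fullest bins, with 6 sites on 2L, 8 on 3L and 6 on 3R, lie in the first 2 Mb.

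At the telomeric ends, each of the 3 arms carried an HP1 site of a different form. The outer 100 kb of the arms together held 10 peaks, or 33.3 per Mb, against 5.93 per Mb in the rest of the windows, a ratio of 5.62. The counts were 1 peak on 2L, 3 on 3L and 6 on 3R, so the ratio rests on few peaks, and without 3R the density was 20 per Mb. For 3R the outer end was set at the last peak, since arm lengths are not in the list, and a peak at that end is thus given by construction.

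On 2L the tip was the isolated peak from 30 to 5130 (score 47.4). The next site began 990.2 kb further in, with a pair of narrow peaks from 995291 to 995566 (score 7.35) and from 995820 to 996056 (13.6). Single peaks followed from 1221218 to 1221424 (12.3), from 1301834 to 1302265 (16.8) and from 1570895 to 1573308 (29.1).

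On 3L the tip was the widest peak among the members, from 9 to 20106, with a score of 63.3. It alone made up most of the 20.6% of bases covered in the outer 100 kb of that arm. Small peaks from 20179 to 20386 (score 7.99) and from 24985 to 25277 (11.5) belonged to the same site. After 83.9 kb followed a single peak from 109184 to 109419 (13.9) and a group from 119554, whose first peaks scored 9 (119554 to 119929) and 19.0 (121148 to 121968).

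On 3R the tip was an array of 6 peaks of nearly equal width and spacing. They began at 27899079, 27900079, 27901044, 27902026, 27903026 and 27904017, so that starts were 1000, 965, 982, 1000 and 991 bp apart. Their widths were 667, 648, 717, 703, 651 and 691 bp, and the gaps between them 265 to 340 bp. Their scores were 70.3, 79.7, 95.5, 59.35, 80.0 and 78.5. The third had the highest score of all 402 members, and 5 of the 6 were among the 10 highest. The other members of 648 to 717 bp, 14 in number, had a median score of 21.6 and a maximum of 34.0. The site next to the array lay 377.5 kb further in.

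The array of 3R was also the most regular group. Its start-to-start distances had a range of 3.53% of their median of 991 bp. Of the 35 groups of 4 or more peaks, 3 others stayed within 20%, all with 4 peaks: 3L from 19733635 to 19736666 (7.40% of a median of 743 bp), 3R from 10867993 to 10870827 (11.7% of 733 bp) and 3R from 21150524 to 21153713 (17.6% of 871 bp). These 3 belong to the 4-peak layout given above, and their widths varied more, from 232 to 752 bp. The median range over the 35 groups was 84.0%.

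**Figure D4:**
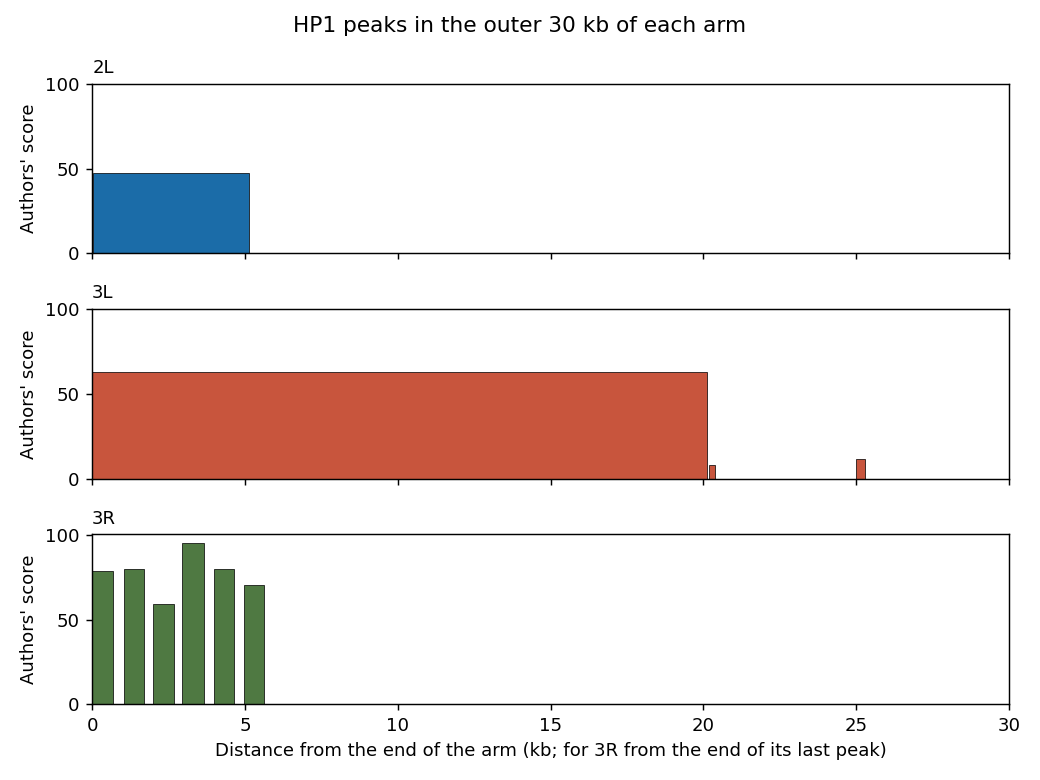
Peaks in the outer 30 kb of 2L, 3L and 3R, by distance from the end of the arm in kb (for 3R from the end of its last peak), with bar width as peak width and bar height as the authors' score. 2L has 1 peak of 5101 bp, 3L 1 peak of 20098 bp with 2 small ones behind it, and 3R 6 evenly spaced peaks with scores of 59.35 to 95.5.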

How the data were processed

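HP1 ChIP-seq was done on 2 samples and input DNA was sequenced from 1. Per the labels' protocols, whole embryos were fixed for 15 min with 1.8% formaldehyde, and chromatin from 150 mg of material met the antibody for 4 h. Whether the replicates were separate collections is unstated in the labels. The authors deposited 1 peak list on FlyBase release 5 made with MACS, per the file headers. BWA, MACS2 and CASAVA (1.7.0.2, 1.7.0.3) are named in the submitters' processing notes. No source used here gives the parameters, the threshold, whether replicates were pooled, or how reads from repeated sequence were placed, which could change peaks in repeats. The deposited score is undefined in the labels and serves only to rank and compare peaks within the list. The deposited starts count from 0 (1 start equals 0), and other columns used, of unit other, are the authors' start and end of each peak, from which widths were computed.

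Peaks were grouped with Python 3.11.15, pandas 2.3.3 and networkx 3.6.1, and the recovery of planted groups and of a planted layout was checked on simulated data. For layouts, the check required only that planted copies be found and set no limit on matches between unrelated groups. No test was run, because the list holds no replicates. Intervals of shares are 95% exact binomial and cover counting only. They treat peaks or groups as independent, which neighbouring peaks and matching groups are not. The members, distances and layouts were chosen with earlier results of these data known. The regions named follow a fixed rule: the 10 groups with most peaks, the 10 isolated peaks of highest score, the highest and the widest peak of each arm, the 6 outermost peaks of each arm, the 5 fullest bins of width with their 3 highest scores, regularly spaced groups and the peaks at the limits; layouts, wide peaks and empty stretches were added after seeing the data. Alternatives were other score limits, group distances, inner limits, bins and windows, merging of close peaks, leaving out an arm or the outer 200 kb, and means of log2 values. No genome of release 5 was used, so genes and sequences under peaks are not analysed here.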

Additional observations from a re-analysis of the deposited data

How the results depend on the processing

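Of 138 recomputed values, 95 kept their sign and stayed within the limits of their main value, 36 moved outside them and 7 changed sign. The limits were a factor of 1.5 for counts and densities, and otherwise an exact binomial or order-statistic interval. For isolated minus grouped differences, opposite ends of the separate median intervals were subtracted. That range is not a 95% interval of the difference. A score limit at the median of the list, 20.96, or at its upper quartile, 34.59, left 158 and 75 peaks (2.38 and 1.13 per Mb), with 67.1% and 41.3% of them in 43 and 12 groups of a median of 2 peaks each. Median spans were then 4523 and 5510 bp, distances between sites 470.9 and 659.4 kb, and widths 1100.5 and 2385 bp. Merging peaks within 1 kb gave 179 peaks (2.70 per Mb), 20.7% of them in 18 groups with a median of 2 peaks and 6418 bp, a median width of 2282 bp and 13.3 telomeric peaks per Mb. Without 2L or 3L there were 267 and 258 peaks in 66 and 65 groups. A group distance of 1 kb left 81.1% in groups. Isolated minus grouped width reversed to 858 and 1279 bp with the score limits, 798 bp with merging and 0.086 on the log2 scale. The score difference reversed to 2.67 with the lower limit, 4.42 with merging and 0.0373 on the log2 scale. Limits for the main differences were -321 to 233 bp in width and -6 to 12.29 in score, so a change of sign can lie within them. The geometric mean width was 635.4 bp. The fullest width bin held 3.23% at 10 bp and 11.9% at 50 bp, by its own size. Telomeric density was 66.7 per Mb in the outer 50 kb and 20 without 3R. Layout tolerances of 3% and 8%, added after seeing the data, gave 24.8% and 65.3% of groups. Where no construction explains a change, the cause was not tested. No paired analysis was possible because the list does not tell the replicates apart, and for the same reason no replicate was left out; unknown depth limits all values.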
